A study of Mus musculus with 2 samples.

Results

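Non-cycling Sertoli cells of the mouse testis at postnatal day (PD) 7 were chosen by their UMI counts in 2 single-cell RNA sequencing libraries. UMIs, or unique molecular identifiers, tag each captured RNA molecule so that PCR copies are counted once. Cells were retained if 750 genes or more were detected and mitochondrial UMIs did not exceed 10%. A retained cell was a member where *Clu*, *Amhr2*, *Rhox8* and *Cst9* together made up at least 10 of every 10000 UMIs. Members also had under 10 per 10000 of the myoid genes *Acta2*, *Myh11* and *Tagln*, under 10 of the stromal genes *Dlk1* and *Dcn*, under 2 of the germ cell genes *Ddx4* and *Dazl*, and under 1 of the mitotic genes *Mki67*, *Top2a*, *Ube2c*, *Cdk1* and *Prc1*. The rule picked 3108 of 13789 retained cells, 1132 of 5077 control cells and 1976 of 8712 *Brca1* vKO cells.

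The control library came from the testes of 1 mouse labelled control, a littermate by the study's methods, whose alleles are not given beyond that. The *Brca1* vKO library came from the testes of 1 *Brca1* f/- *Vasa-Cre* mouse. *Vasa-Cre* acts in germ cells, so the Sertoli cells of the *Brca1* vKO mouse carry 1 floxed and 1 constitutively deleted *Brca1* allele, and the germ cells around them lose the floxed allele as well. More *Brca1* vKO cells were loaded. With 1 library per genotype there is no replicate check: the mouse, the library and the genotype cannot be told apart, no test was made, and each interval is a 95% interval that covers counting error only.

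Sertoli cells are the somatic epithelial cells of the seminiferous cords. They enclose the germ cells, feed them with lactate and other metabolites, form the blood-testis barrier at puberty and secrete the ligands that keep or differentiate spermatogonia. The transcription factor SOX9 directs their fate, anti-Müllerian hormone (AMH) is their fetal and juvenile hormone, and follicle-stimulating hormone and thyroid hormone govern their growth. In the mouse they divide until the juvenile period and then leave the cell cycle, so that dividing and non-dividing Sertoli cells are found side by side at PD7.

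In sum, 23519213 UMIs came from control and 36220960 from *Brca1* vKO members. Their median depth was 16500 and 13181.5 UMIs per cell, with 4777 and 4352 genes detected and 5.17% and 4.94% mitochondrial UMIs. Scrublet, a doublet caller, marked 2 control and 16 *Brca1* vKO members as likely doublets. No barcode of a member occurred in both libraries, against 16 barcodes shared among all retained cells.

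A few Sertoli promoters are shown as examples, all of genes among the markers that the rule did not use. They are the 250 bases before the RefSeq start on GRCm38.p6 of *Dhh*, a hedgehog ligand for Leydig and myoid cells (chromosome 15, 98898541 to 98898790, minus strand), *Inha*, the inhibin alpha subunit (chromosome 1, 75507359 to 75507608, plus strand), and *Fshr*, the follicle-stimulating hormone receptor (chromosome 17, 89200676 to 89200925, minus strand). Capitals mark every match, on either strand, to AGGTCA (the core bound by nuclear receptors such as NR5A1), GATAA (GATA factors), ACAAT (SOX factors), CACGTG (an E-box) or TGACGTCA (a cAMP response element).
Dhh: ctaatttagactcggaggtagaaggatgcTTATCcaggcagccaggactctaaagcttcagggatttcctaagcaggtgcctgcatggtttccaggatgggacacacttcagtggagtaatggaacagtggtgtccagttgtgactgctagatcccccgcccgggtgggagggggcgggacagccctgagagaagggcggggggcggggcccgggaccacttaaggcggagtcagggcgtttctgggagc
Inha: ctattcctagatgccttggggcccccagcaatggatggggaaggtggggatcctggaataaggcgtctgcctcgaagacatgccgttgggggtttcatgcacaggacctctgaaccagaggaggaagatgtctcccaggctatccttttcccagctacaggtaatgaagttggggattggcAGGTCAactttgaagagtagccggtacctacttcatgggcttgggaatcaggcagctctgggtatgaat
Fshr: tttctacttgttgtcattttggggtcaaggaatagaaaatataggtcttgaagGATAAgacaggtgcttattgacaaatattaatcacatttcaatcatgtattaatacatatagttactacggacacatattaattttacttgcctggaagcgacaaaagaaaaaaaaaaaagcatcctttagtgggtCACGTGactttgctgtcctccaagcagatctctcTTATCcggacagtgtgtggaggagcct

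*Inha* held AGGTCA 69 bases before its RefSeq start. GENCODE vM21 places *Inha* at 75507077 to 75510366 on the same strand, so by that annotation the printed window lies within the gene, whereas the other windows end at the gene's start. *Fshr* held CACGTG 61 bases before its start and GATAA at 197 and, on the other strand, at 27 bases, and *Dhh* held GATAA on the other strand at 221 bases. These are matches of letters, not sites. AGGTCA occurred in 14% of the 32851 windows of this length, GATAA in 22.6%, ACAAT in 27.7%, CACGTG in 6.02% and TGACGTCA in 1.55%. Of the 18 Sertoli markers 10 had a window in the table, and AGGTCA was found in 3 of the 10, GATAA in 3, ACAAT in 1, CACGTG in 2 and TGACGTCA in 0. The marker counts are per gene, with a match in any of its windows, whereas the percentages are per window. They are therefore unlike measures.

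The label was checked against Sertoli markers outside the rule. *Sox9* (chromosome 11, 112782224 to 112787760, plus strand) stood at 360 counts per 1000000 UMIs (CPM) in control and 315 CPM in *Brca1* vKO members, against 30.1 and 36.5 CPM in stromal cells. *Amh* (chromosome 10, 80805243 to 80807648, plus strand) was at 360 and 336 CPM, *Fshr* at 330 and 324 CPM, *Dhh* at 178 and 204 CPM and *Inha* at 1112 and 1201 CPM. In stromal cells, those 4 genes stood between 2.13 CPM (*Dhh*, control) and 34.3 CPM (*Inha*, *Brca1* vKO). Of the 18 markers, 17 were higher in the members than in stromal, myoid and germ cells in both libraries. The exception was *Dmrt1*, a transcription factor that germ cells also use, at 141 and 135 CPM in members and 327 and 218 CPM in germ cells. The members therefore carried the defining genes of Sertoli cells, and the label is kept.

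**Figure D1:**
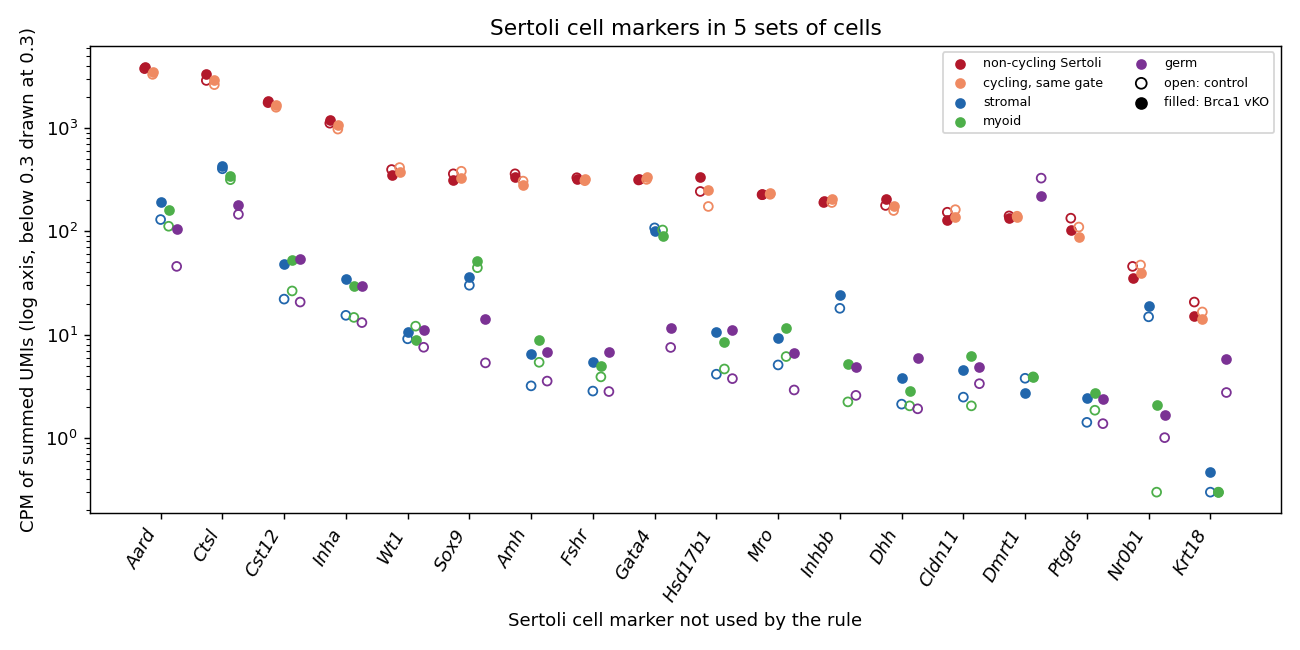
Levels in CPM (log axis) of the 18 Sertoli markers that the rule did not use, in 5 sets of cells, with open circles for the control and filled circles for the Brca1 vKO library. Sox9 stood at 360 and 315 CPM in the members and at 30.1 and 36.5 CPM in stromal cells, and only Dmrt1 was higher in germ, stromal or myoid cells than in the members. Sox9, Wt1, Gata4, Cldn11, Mro and Nr0b1 were higher in cycling cells of the gate in both libraries.

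The 4 genes of the rule itself served to choose the cells, and their sum is given as a description. It ran from 10 to 158 per 10000 UMIs in control members, with a median of 61, and from 11 to 290 in *Brca1* vKO members, with a median of 61.7. Few cells lay at this threshold: 4 control and 4 *Brca1* vKO members had sums within 2 above it, and 2 and 3 cells missed it by 2 or less. The cycling threshold cut through a dense region. There, 98 control and 372 *Brca1* vKO members lay within 0.2 below the limit of 1 per 10000, and 100 and 160 cells lay within 0.2 above it. A cell of just over 10000 UMIs falls just below the limit with 1 mitotic UMI. The lower quartile of depth was 13428.5 UMIs in the 1132 control and 11140.5 UMIs in the 1976 *Brca1* vKO members. The part of depth in these counts was not tested.

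**Figure D2:**
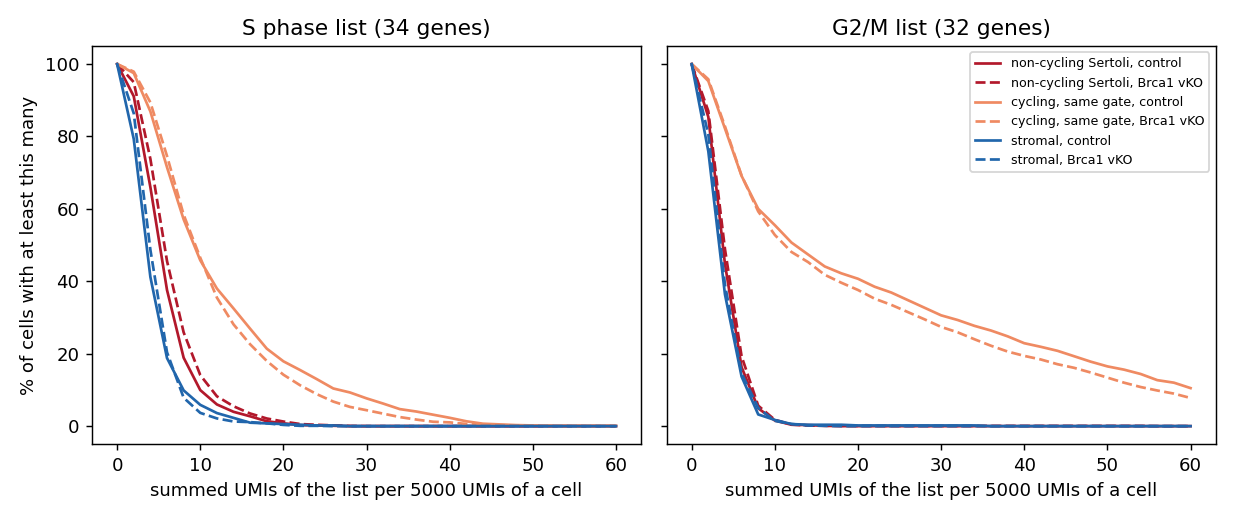
Percent of cells (vertical axis) with at least a given number of summed UMIs of the S phase list or the G2/M list (horizontal axis), after each cell was thinned to 5000 UMIs, for control (solid) and Brca1 vKO (dashed) cells. At 10 UMIs of the S phase list the members stood at 9.95% and 14.1%, and the cycling cells of the same gate at 45.8% and 46.5%.

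Members made up 22.3% (95% Clopper-Pearson interval 21.2 to 23.5) of the retained control cells and 22.7% (21.8 to 23.6) of the retained *Brca1* vKO cells. Before the cycling cut, 2324 control and 4514 *Brca1* vKO cells passed the Sertoli gate, and the non-cycling share was 48.7% (46.7 to 50.8) and 43.8% (42.3 to 45.2), respectively. Because 1 UMI of a mitotic gene removes any cell under 10000 UMIs, the share was also taken after every cell was thinned to 5000 UMIs. It was then 50% (47.8 to 52.2) among control and 46.2% (44.7 to 47.8) among *Brca1* vKO cells, with 246 and 305 shallower gate cells left out. The 2 intervals did not overlap before thinning, and met at 47.8% after it. By depth, 61.2% of control and 55.3% of *Brca1* vKO gate cells with 10000 to under 20000 UMIs were non-cycling. Under 10000 UMIs the shares were 38.2% and 36.1%, and at 20000 UMIs or more they were 38.7% and 31.2%. Shares of cells also move with how many cells of other types each suspension held. Germ cells alone were 18.3% of the retained control and 2.89% of the retained *Brca1* vKO cells, so the near-equal shares of all retained cells rest on unlike totals.

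The members were next compared with the cycling cells of the same gate, 1192 control and 2538 *Brca1* vKO cells. The genes named here did not enter the rule, although they follow the 5 mitotic genes that did, so the values describe the split and do not test it. All 27 genes of the G2/M list with enough counts were lower in members than in cycling cells in both libraries, and 26 were lower by more than 2-fold. The share over all genes was not taken beside these counts. *Cenpf*, a kinetochore protein, stood at 8.46 and 7.98 CPM in members against 264 and 231 CPM in cycling cells, and *Ccnb1*, the mitotic cyclin B1, at 2.34 and 1.85 CPM against 64.1 and 56.8 CPM. The G2/M list summed to 711 and 747 CPM in members, near its 641 and 650 CPM in non-cycling stromal cells.

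The S phase list was less depleted. All 31 measured genes were lower than in cycling cells in both libraries, and 17 by more than 2-fold, again without a share over all genes. The list summed to 1109 CPM in control and 1217 CPM in *Brca1* vKO members, against 2309 and 2213 CPM in cycling cells and 805 and 815 CPM in stromal cells. *Rrm2*, a ribonucleotide reductase subunit, was at 1.15 and 1.66 CPM against 25.9 and 22.1 CPM. *Mcm6*, part of the replicative helicase, was at 62.4 and 75.6 CPM against 97.8 and 99.3 CPM. *Dut*, which clears dUTP, was at 195 and 221 CPM against 355 CPM in both libraries, and at 48.9 and 55.9 CPM in stromal cells. At 20 or more S phase UMIs per 10000, 107 of 1132 control members (9.45%, 7.81 to 11.3) and 219 of 1976 *Brca1* vKO members (11.1%, 9.73 to 12.6) stood out, against 4.64% and 2.84% of stromal cells. After thinning to 5000 UMIs, those shares were 9.95% and 14.1% of members and 5.88% and 3.66% of stromal cells. "Non-cycling" thus names a low sum of the 5 mitotic transcripts, which was 0 in 50.5% of control and 49.5% of *Brca1* vKO members, and some members carried S phase transcripts.

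Of the regulators of G1, *Cdkn2c* (p18, an inhibitor of CDK4 and CDK6) was lower in members, at 7.78 and 7.95 CPM against 56.9 and 45.2 CPM in cycling cells. *Cdkn1b* (p27, an inhibitor linked to Sertoli cell exit from the cycle) was at 50.6 and 50.3 CPM in members and 60.2 and 58.4 CPM in cycling cells. *Cdkn1c* (p57) was at 3.91 and 4.58 CPM against 2.0 and 2.10 CPM, and *Ccnd2* (cyclin D2) at 469 and 487 CPM against 412 and 456 CPM. Among 17 measured regulators, 10 were lower in members in both libraries. So were 13 of 19 junction genes and 3 of 20 genes of secreted proteins, 0 of them by more than 2-fold. The share over all genes was not taken.

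Levels that set the members apart from all other retained cells were taken as the smaller fold of the 2 libraries, on CPM plus 10. The 15 leading genes outside the rule were *Gm35533*, *Serpina5*, *Hsd17b1*, *Kazald1*, *Prcd*, *Hspb1*, *Fam155a*, *Hsd3b1*, *Cited1*, *Scrn2*, *Fndc5*, *Amh*, *Gm2044*, *Rnd2* and *Hsd17b3*, with log2 folds from 1.22 down to 1.02. The folds are small because the other cells include the cycling Sertoli cells. *Gm35533* stood at 1340 and 1216 CPM in members, 987 and 903 CPM in cycling cells and 28.1 and 27.1 CPM in stromal cells. *Serpina5*, a secreted protease inhibitor, was at 102 and 151 CPM in members, at 65.7 and 102 CPM in cycling cells and at 1.07 and 4.46 CPM in stromal cells. *Hsd17b1*, an enzyme of sex steroid conversion, was at 243 and 337 CPM against 174 and 251 CPM in cycling cells, and *Hsd17b3*, which makes testosterone from androstenedione, at 392 and 390 CPM against 317 and 329 CPM. *Amh* was at 360 and 336 CPM against 306 and 280 CPM.

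*Hsd3b1* was an exception among these 15 genes. Its 44.3 and 36.5 CPM in members came almost wholly from a few cells that carried Leydig cell enzymes. In 18 control and 20 *Brca1* vKO members, *Cyp11a1*, *Cyp17a1*, *Hsd3b1* and *Star* together reached at least 10 per 10000 UMIs. *Hsd3b1* thus helped to mark these 38 cells, which held 1011 of the 1041 control and 1273 of the 1322 *Brca1* vKO UMIs of *Hsd3b1*. In them, *Insl3*, the Leydig cell hormone, stood at 754 and 800 CPM, against 0.0435 and 0.476 CPM in the other members. *Sox9* was at 98.2 and 65.2 CPM in them against 366 and 318 CPM, *Amh* at 26.9 and 23.0 CPM against 367 and 341 CPM, and *Cst9* at 115 and 132 CPM against 1633 and 1769 CPM. They passed the rule mainly through *Clu*, at 1361 and 1894 CPM. They made up 1.59% of control and 1.01% of *Brca1* vKO members, against 0.168% and 0.118% of the cycling cells of the gate.

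Transcripts of red blood cells and of leukocytes also differed between the 2 libraries. Haemoglobin genes with *Alas2* reached 10 per 10000 UMIs in 99 control members (8.75%) and 19 *Brca1* vKO members (0.962%). Those cells were shallow, with a median of 2825 and 1680 UMIs. Neutrophil genes reached that level in 0 of 1132 control and 2 of 1976 *Brca1* vKO members, and macrophage genes in 0 and 4. In all, 117 control and 43 *Brca1* vKO members were marked by Leydig or blood genes, and results that rest on them are given below with and without those cells. In sums over members, the stromal list was at 60.8 and 103 CPM against 10980 and 10861 CPM in stromal cells. The germ cell list was at 72.9 and 50.9 CPM, the endothelial list at 25.8 and 18.1 CPM, the pericyte list at 1.23 and 2.84 CPM and the myoid list at 195 and 202 CPM, of which *Mylk* gave 109 and 119 CPM.

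The libraries were then compared within the members. The *Brca1* vKO members came from a testis whose germ cells lack *Brca1*. This cannot be told apart from their own deleted allele, the mouse or the library. *Brca1* itself (chromosome 11, 101488764 to 101551955, minus strand) was at 6.97 CPM (5.95 to 8.13, 164 UMIs) in control and 8.12 CPM (7.22 to 9.10, 294 UMIs) in *Brca1* vKO members, a ratio of 1.16 (0.958 to 1.42). After thinning to 5000 UMIs the ratio was 0.931, from 37 and 63 UMIs. A difference in *Brca1* was not detectable at this depth, and since counts over a whole gene need not show a deletion of inner exons, the gene does not check the genotype here. Cycling cells of the gate held more of it, 46.1 and 34.6 CPM, and germ cells held 71.7 and 44.1 CPM.

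**Figure D3:**
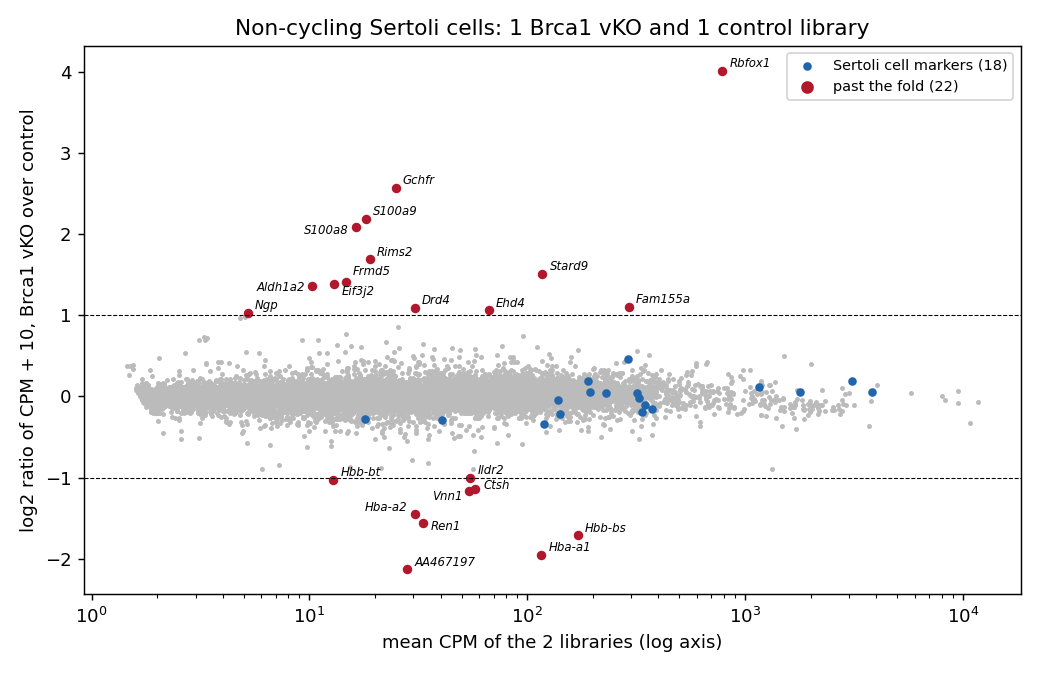
Log2 ratio of CPM plus 10, Brca1 vKO over control (vertical axis), against mean CPM (log axis) for 12256 genes in non-cycling Sertoli cells. The 22 genes past the fold (red) run from AA467197 at -2.13 to Rbfox1 at 4.01, and the 18 Sertoli markers (blue) lie between -0.34 and 0.46.

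A gene was compared where control and *Brca1* vKO members together held 100 UMIs or more of it. Of 12256 such genes, 13 were at least 2-fold higher in *Brca1* vKO members (0.106%) and 9 at least 2-fold lower (0.0734%), on CPM plus 10. The median log2 ratio over all these genes was 0.005, and 99.3% of the ratios lay within 0.5 of 0. The added 10 CPM pulls the log2 ratios of low genes toward 0. A gene under 10 CPM in both libraries could not pass the fold at any ratio. Without a second mouse of either genotype, none of these differences has an error between animals.

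None of the 18 Sertoli markers passed the fold in either direction, against 0.106% of all genes compared upward and 0.0734% downward. The median log2 ratio of the markers was 0.01, and 9 of 18 were above 0. The ends of the range were *Ptgds*, a prostaglandin D synthase, at 134 and 104 CPM (ratio 0.774, 0.738 to 0.812), and *Hsd17b1* at 243 and 337 CPM (ratio 1.39, 1.34 to 1.43). *Sox9* had a ratio of 0.874 (0.850 to 0.899), *Amh* of 0.934 (0.909 to 0.961), *Wt1* of 0.892 (0.868 to 0.916) and *Gata4* of 1.03 (1.0 to 1.06). At 5000 UMIs per cell, *Amh* was seen in 75.5% of control and 75.4% of *Brca1* vKO members and *Fshr* in 64.7% and 66.9%, against 1.33% to 3.66% of stromal cells.

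*Rbfox1*, a neuronal and muscle splicing factor, showed the widest gap. Its locus spans chromosome 16, 5885355 to 7411526, plus strand. It was at 82.8 CPM (79.1 to 86.5, 1947 UMIs) in control and 1484 CPM (1471 to 1497, 53750 UMIs) in *Brca1* vKO members, a ratio of 17.9 (17.1 to 18.8) and a log2 ratio of 4.01. At 5000 UMIs per cell, the control members ran from 0 to 7 UMIs of *Rbfox1* with a median of 0, and the *Brca1* vKO members from 0 to 39 with a median of 5. It was detected in 23.9% (21.3 to 26.6) of control and 86.4% (84.8 to 87.9) of *Brca1* vKO members at that depth. The UMIs were spread over many *Brca1* vKO members: 1776 held at least 1, and the 250 with most held 50% of them. In cycling cells of the gate, it stood at 47.9 and 1188 CPM. Stromal cells went the other way, with 223 CPM in control and 115 CPM in *Brca1* vKO, a ratio of 0.516 (0.483 to 0.552). Germ cells went the same way as the members, with 25.6 and 53.5 CPM, a ratio of 2.09 (1.85 to 2.35).

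*Fam155a*, which encodes an auxiliary subunit of the NALCN sodium leak channel, was at 182 CPM and 402 CPM, a ratio of 2.21 (2.14 to 2.29). At 5000 UMIs it was seen in 30.9% of control and 53.8% of *Brca1* vKO members, and in 1.52% and 3.24% of stromal cells. *Rims2*, a presynaptic scaffold, was at 3.70 and 34.2 CPM (ratio 9.25, 7.44 to 11.6). *Drd4*, a dopamine receptor, was at 15.9 and 45.1 CPM (ratio 2.84, 2.53 to 3.18). *Fam155a* fell short of the fold in 2 of 14 alternatives (lowest log2 ratio 0.96) and *Drd4* in 2 (lowest 0.53). In stromal cells *Rims2* stood at 0.711 and 0.744 CPM and *Drd4* at 8.54 and 10.5 CPM.

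**Figure D4:**
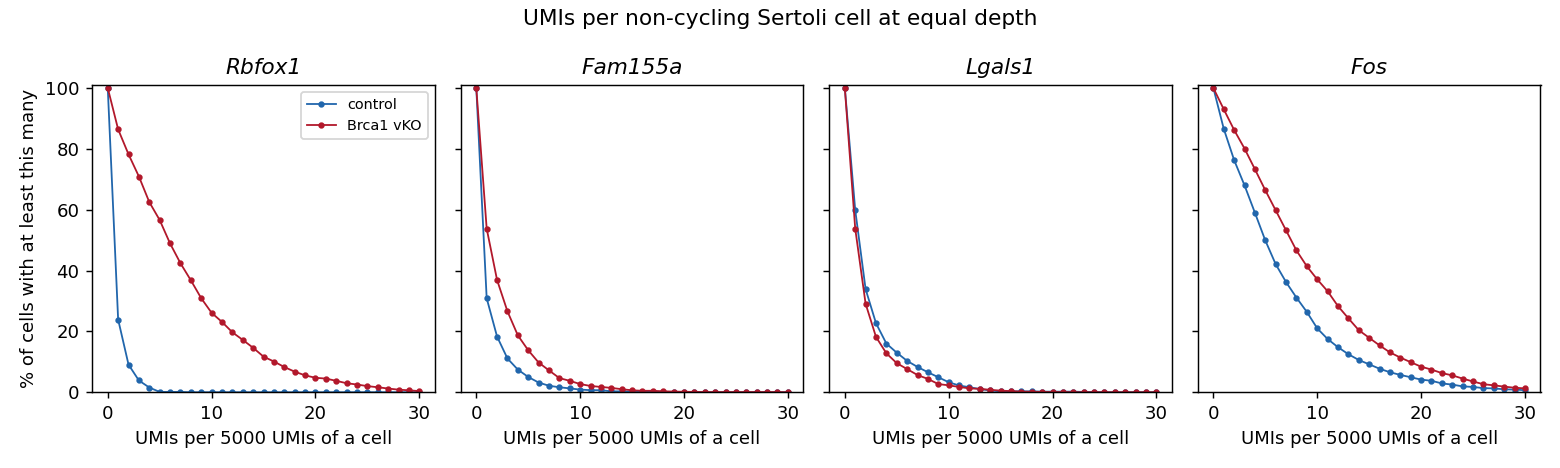
Percent of non-cycling Sertoli cells (vertical axis) with at least a given number of UMIs of 4 genes (horizontal axis) after thinning each cell to 5000 UMIs, in the control (blue) and the Brca1 vKO (red) library. Rbfox1 was seen in 23.9% of control and 86.4% of Brca1 vKO cells, whereas Lgals1 was seen in 59.9% and 53.8%.

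*Aldh1a2*, a retinaldehyde dehydrogenase that makes retinoic acid, was the 1 gene of the 15 measured niche factors past the fold. It stood at 1.40 CPM (33 UMIs) and 19.2 CPM (695 UMIs), a ratio of 13.7 (9.65 to 20), and germ cells went the other way, from 19.2 to 5.79 CPM. The germ cells of the 2 libraries differed in make-up, with *Stra8* at 180 CPM in control and 50.7 CPM in *Brca1* vKO and *Gfra1* at 162 and 339 CPM. The part of this in the germ cell values was not tested. *Aldh1a1*, the related enzyme, was at 1052 and 1078 CPM. *Cyp26b1*, which breaks retinoic acid down, was at 14.8 and 21.3 CPM. The spermatogonial growth factors differed less. *Kitl*, the ligand of the KIT receptor, was at 819 and 840 CPM (ratio 1.03, 1.01 to 1.04), and *Gdnf*, which maintains spermatogonial stem cells, was at 33.0 and 42.8 CPM (ratio 1.30, 1.19 to 1.42). *Wnt6* was at 398 and 376 CPM and *Pdgfa* at 141 and 161 CPM. The list's median log2 ratio was 0.04.

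*Gchfr*, the feedback regulator of GTP cyclohydrolase, had 1 UMI in all 1132 control members and 1801 UMIs in *Brca1* vKO members, 0.0425 and 49.7 CPM (ratio 1169, 210 to 46216). It was found in 899 *Brca1* vKO members, at most 11 UMIs in a cell. *Stard9*, a kinesin, was at 56.3 and 178 CPM (ratio 3.17, 2.99 to 3.36). *Ehd4*, an endocytic ATPase, was at 39.5 and 93.3 CPM (ratio 2.37, 2.20 to 2.55), short of the fold in 3 of 14 alternatives: with a mitochondrial limit of 5% (log2 ratio 0.93), with cells thinned to 5000 UMIs (0.95) and with a pseudocount of 50 CPM (0.68). *Frmd5* was at 3.53 and 25.8 CPM (ratio 7.32, 5.85 to 9.28). *Eif3j2*, a copy of an initiation factor gene, was at 2.76 and 23.3 CPM, and between 7.44 and 15 times as high in *Brca1* vKO in stromal, myoid, germ and cycling cells. Reads of *Eif3j2* may be shared with *Eif3j1*, so its level is uncertain.

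Among the 9 lower genes, *AA467197*, a small mitochondrial protein gene that hosts a microRNA, was at 52.0 CPM (1224 UMIs) in control and 4.14 CPM (150 UMIs) in *Brca1* vKO members, a ratio of 0.0796 (0.0667 to 0.0943). *Vnn1*, a pantetheinase found in Sertoli cells, was at 78.7 and 29.8 CPM (ratio 0.379, 0.351 to 0.408). *Ctsh*, a lysosomal protease, was at 82.6 and 32.1 CPM (ratio 0.389, 0.361 to 0.418), and *Ildr2* at 76.5 and 33.2 CPM (ratio 0.434, 0.403 to 0.467). *Ildr2* sat at the fold itself, and was past it in 9 of 14 alternatives. Cycling cells of the gate showed like values for these 4, such as 68.0 and 23.6 CPM of *Vnn1*. Just short of the fold were *Rpl26*, a ribosomal protein gene (1744 and 928 CPM), the peptide transporter *Slc15a2* (10.9 and 1.19 CPM) and *E330017L17Rik* (76.1 and 36.4 CPM). *Rpl26* was also lower in *Brca1* vKO stromal, myoid, germ and cycling cells, with ratios from 0.524 to 0.658.

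The remaining genes past the fold are known from other cell types. *S100a8* and *S100a9*, neutrophil genes, were at 0.0425 and 0.128 CPM in control and at 32.8 and 36.2 CPM in *Brca1* vKO members, and *Ngp* had 0 and 377 UMIs, which makes it at least 81.6-fold higher against a floor of 3 UMIs over the control sum, while the exact conditional interval of the ratio starts at 66.0. Of their *Brca1* vKO UMIs, 82.8%, 83.1% and 87.5% lay in members marked by Leydig or blood genes, and 2 cells held at least 50% of each. Without the marked cells, *S100a8* stood at 5.74 CPM, *S100a9* at 6.22 CPM and *Ngp* at 1.32 CPM, and none of the 3 passed the fold. These 3 genes and the haemoglobin genes are themselves among those that marked the cells, so the values with and without marked cells say where the UMIs lay and are no independent check. *Hbb-bs*, *Hba-a1*, *Hba-a2* and *Hbb-bt* were lower, and 36.4% to 64.9% of their control UMIs lay in marked cells. Without those cells, *Hbb-bs* was at 122 and 34.9 CPM and *Hba-a1* at 69.5 and 18 CPM, still past the fold, while *Hba-a2* and *Hbb-bt* were not. In stromal cells *Hbb-bs* stood at 628 and 45.9 CPM.

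*Ren1*, renin, a product of mouse Leydig cells, was at 54.6 and 12 CPM. Of the 1283 control UMIs, 1274 lay in the 18 Leydig-marked members and 801 in a single cell. Without the marked cells it was at 0.399 and 0.506 CPM. With a Sertoli sum of at least 20 per 10000 its log2 ratio turned from -1.56 to 0.70. With the marked cells left out, 10 genes were higher and 6 lower, all of them among the 22.

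**Figure D5:**
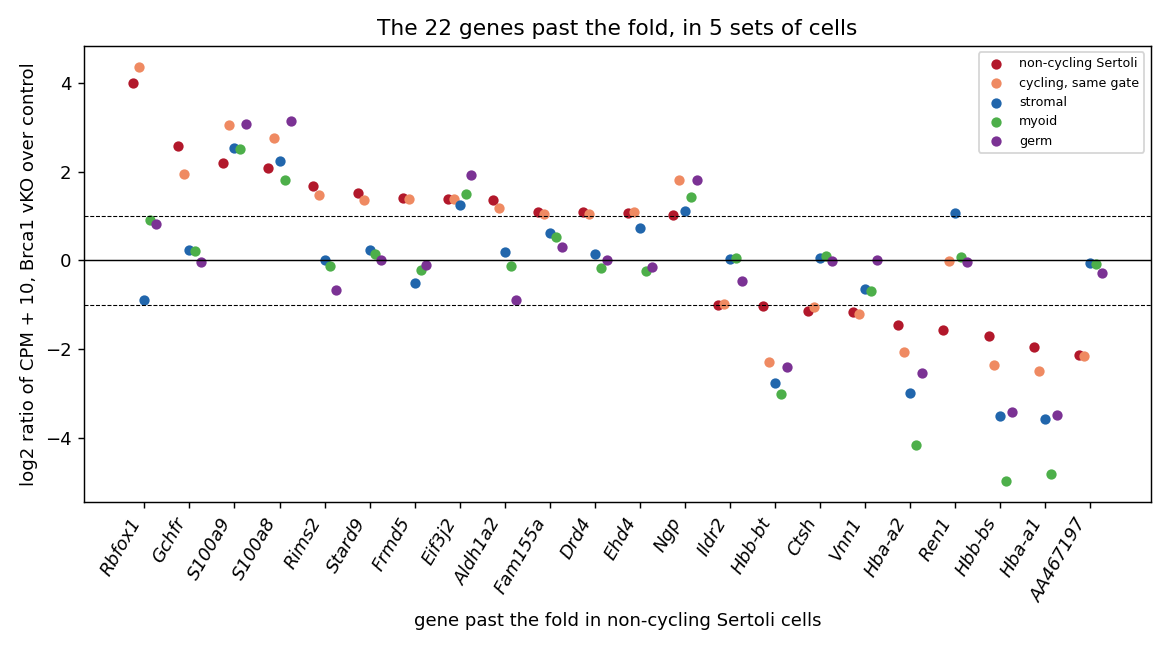
Log2 ratio of CPM plus 10, Brca1 vKO over control, of the 22 genes past the fold in non-cycling Sertoli cells, in 5 sets of cells. Haemoglobin and neutrophil genes lie on the same side in all 5 sets, whereas Rbfox1, Rims2, Stard9, Frmd5, Drd4 and AA467197 are past the fold (dashed lines at -1 and 1) only in the 2 sets of the Sertoli gate. A gene under 10 CPM in both libraries of a set cannot be past the fold there. In germ cells this held for Drd4 (1.14 and 1.33 CPM) and AA467197 (4.94 and 2.29 CPM, ratio 0.464). Rbfox1 in germ cells had a log2 ratio of 0.83.

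In the other lists of Sertoli functions 0 genes passed the fold. Over all genes compared, 0.106% passed it upward and 0.0734% downward. A count of 0 in lists of this size, here and below, therefore does not set them apart. Beside the medians given here, the median over all genes compared was 0.005. None of 15 measured Sertoli transcription factors passed the fold (median -0.05). *Etv5*, a target of fibroblast growth factor signalling, was highest at a log2 ratio of 0.42, and *Nr5a1*, a driver of steroidogenic and *Amh* transcription, stood at 65.6 and 62.7 CPM. None of 20 secreted proteins passed (median 0.06), although *Serpina5* was at 102 and 151 CPM (ratio 1.48, 1.41 to 1.55) and *Igfbp3*, a binding protein of insulin-like growth factors, at 67.5 and 98.9 CPM (ratio 1.46, 1.38 to 1.55). None of 20 receptors passed (median 0.09). *Thra*, a thyroid hormone receptor, was at 308 and 315 CPM.

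Junction genes gave 0 of 19 past the fold (median 0.04). *Gja1*, connexin 43, was highest at 486 and 599 CPM (ratio 1.23, 1.21 to 1.26), and *Cldn11*, the tight junction claudin of Sertoli cells, was lowest at 153 and 130 CPM (ratio 0.848, 0.812 to 0.886). *Cldn3* and *Cldn5*, claudins of the later barrier, had at most 23 UMIs in either library. Maturation genes gave 0 of 14 (median 0.07). *Rhox5*, a gene that androgens induce in older Sertoli cells, was at 1.79 and 3.34 CPM, and *Gata1* at 16.4 and 13.1 CPM. Genes of immature Sertoli cells gave 0 of 7 (median 0.01), with *Krt18* at 20.7 and 15.3 CPM and *Krt8* at 20.2 and 21.5 CPM. Basement membrane genes gave 0 of 15 (median 0.07), with *Col18a1* at 297 and 272 CPM and *Col4a1* at 108 and 119 CPM.

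Glycolysis and lactate genes gave 0 of 22 (median 0.02). *Ldhb* stood at 1221 and 1347 CPM, *Ldha* at 146 and 147 CPM and the lactate exporter gene *Slc16a3* at 51.7 and 41.1 CPM (ratio 0.795, 0.736 to 0.858). Phagocytosis genes gave 0 of 20 (median 0.03). Of these, *Mertk*, a receptor by which Sertoli cells take up dead germ cells, was at 36.4 and 29.2 CPM, its ligand gene *Gas6* at 175 and 200 CPM and *Elmo1*, which acts in engulfment, at 181 and 210 CPM.

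None of 23 measured p53 targets passed the fold (median 0.00), but those under 10 CPM in both libraries, *Cdkn1a* among them, could not have passed. *Cdkn1a*, p21, was at 3.27 CPM (77 UMIs) and 5.33 CPM (193 UMIs), a ratio of 1.63 (1.24 to 2.15), against 12.3 and 149 CPM in germ cells. *Ccng1* was at 18.8 and 16.4 CPM, against 67.1 and 252 CPM in germ cells, and *Mdm2* at 40.8 and 43.6 CPM. *Sesn1* was the lowest of the list at 69.2 and 49.7 CPM (ratio 0.718, 0.671 to 0.768). Repair partners of BRCA1 gave 0 of 24 (median 0.05), with the same limit for genes under 10 CPM such as *Bard1*. *Bard1* was at 2.76 and 3.12 CPM, against 32.1 and 26.9 CPM in cycling cells of the gate. *Brca2* was at 19.6 and 21.2 CPM, against 51.8 and 47.9 CPM. In this list 22 genes were lower in members than in cycling cells in both libraries, 10 of them by more than 2-fold. No share over all genes was taken beside these counts.

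Between libraries, 0 of 31 S phase genes (median 0.07), 0 of 27 G2/M genes (median 0.05) and 0 of 17 G1 regulators (median -0.01) passed the fold. Members of both libraries were held under the same limit on mitotic genes, so likeness in these lists follows in part from the rule. At equal depth, 9.95% of control and 14.1% of *Brca1* vKO members reached 20 S phase UMIs per 10000. Of the 27 stress genes, which respond to tissue digestion as well as to other signals, none passed, but the median was 0.13 and the sum was 10722 and 12485 CPM. *Fos* was at 1245 and 1766 CPM (ratio 1.42, 1.40 to 1.44), *Fosb* at 256 and 382 CPM and *Egr1* at 934 and 1165 CPM. The list was higher in *Brca1* vKO stromal cells too, at 22438 and 26527 CPM. The lists of Leydig (median -0.18), stromal (0.27), myoid (0.09), germ (-0.14) and endothelial (0.01) genes had 0 past the fold. The macrophage list had 1 compared gene, *Lyz2*, at 0.340 and 5.0 CPM, and the pericyte list had 0.

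Variation among the members was measured as variance over mean of UMIs per cell after thinning to 5000 UMIs, a ratio that is 1 for pure counting noise. Over 1035 control and 1893 *Brca1* vKO members the median gene had a ratio of 1.07 and 1.06, and 126 and 105 genes exceeded 2. The 10 leading genes were *Hba-a1* and *Hbb-bs*, *Gm42418* and *Malat1*, then *Cyp11a1*, *Cyp17a1*, *Hsd3b1* and *Igfbp7*, all far higher in the Leydig-marked members, and *Fos* and *C430049B03Rik*. *Gm42418* overlaps ribosomal RNA and is uncertain. *Fos* had ratios of 5.97 and 6.04, with 0 to 44 UMIs in control and 0 to 54 in *Brca1* vKO members.

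Below them came genes named here after their values were seen: *Fam155a* (4.36 and 4.47), *Lgals1* (4.43 and 4.26), the transcription factor *Creb5* (4.94 and 3.93) and *Gm35533* (4.10 and 3.41). Likeness across cells was described by Pearson's correlation of log UMIs at 5000 UMIs, over 1017 control and 1873 *Brca1* vKO members without the Leydig-marked ones and 2014 genes. Cells of a library share its depth and its free RNA, so no p is given. *Fos* was most like *Btg2* (0.53 in both libraries) and *Junb* (0.46 and 0.47). *Lgals1*, galectin 1, stood higher in stromal cells, at 1621 and 1387 CPM against 374 and 289 CPM in members. Among members it was most like *Siva1* (0.52 and 0.49), and ran against *Aldh1a1* (-0.37 and -0.32) and *Gm35533* (-0.31 and -0.30). *Creb5* was most like *Sema5a* (0.42 and 0.44) and *Pappa* (0.41 and 0.38). *Rbfox1* was most like *Fam155a*, with 0.19 among control and 0.46 among *Brca1* vKO members. The levels of *Rbfox1* differed between the libraries as given above, and their part in the 2 values was not tested.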

How the data were processed

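Per the labels, testes of 1 control and 1 *Brca1* vKO mouse at PD7 were digested and captured on the 10x Genomics platform. The authors sequenced the libraries, aligned reads to mm10 and deposited raw UMI counts per gene and barcode from Cell Ranger 6.0.2, before their filter in Seurat 4.3.0.1 under R 4.2.3. The tables held 120568700 control and 165062097 *Brca1* vKO UMIs in 5812 and 9456 barcodes.

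Cells were chosen by the rule given above. The members, lists and alternatives were chosen with earlier results of these data known. UMIs were summed per library and set of cells and given per 1000000 UMIs (CPM). Stromal, myoid and germ cells had the matching sum at or above its limit and the sums of the other types below theirs, and the stromal and myoid cells were also non-cycling. Ratios are *Brca1* vKO over control, with log2 ratios on CPM plus 10 for genes with 100 UMIs or more over the 2 libraries. A gene was past the fold at a log2 ratio of 1 or more in size. Shares have exact Clopper-Pearson, sums exact Poisson and ratios exact conditional intervals at 95% (scipy 1.17.1, Python 3.11.15). Named genes were drawn from *Brca1*, the rule's genes and Sertoli markers, the 12 largest and 12 smallest log2 ratios, the 15 leading genes over other cells, the 10 with the largest variance over mean, and in each list those past the fold and the 4 with most UMIs. Further list members are named as the ends of a list or for their role. Doublets were marked with Scrublet (scanpy 1.11.5) and kept. On counts simulated for this comparison over 12270 genes, 200 of 200 genes changed 4-fold were past the fold, with 0 unchanged genes. The changed genes were drawn only from those of higher level, and the noise was counting error alone. The simulation therefore checked the computation and not the sensitivity for genes with few UMIs. TMM factors came from edgeR 4.0.16. Gene positions are from GENCODE vM21 on GRCm38, the assembly of mm10, and promoters from RefSeq on GRCm38.p6. *Amh*, *Sox9* and *Hsd17b1* had no promoter entry. PCR copies are removed by UMIs, but free RNA is not.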

Additional observations from a re-analysis of the deposited data

Results flagged for a closer look

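In 9 instances a gene past the fold in non-cycling Sertoli cells went the opposite way in another set of cells, with an interval on the other side of 1. The difference between the sets was not tested, since each genotype had 1 library. The germ cell set held 927 control and 252 *Brca1* vKO cells of unlike make-up, as given above, and the part of this in its ratios was not tested. *Rbfox1*, 17.9 times as high in *Brca1* vKO members, had a ratio of 0.516 in stromal cells, but 2.09 in germ cells. *Rims2*, with a ratio of 9.25 in members, had 0.503 in germ cells. *Aldh1a2*, with 13.7 in members, had 0.301 in germ cells. *Frmd5*, with 7.32 in members, had 0.688 in stromal, 0.844 in myoid and 0.919 in germ cells. *Ehd4*, with 2.37 in members, had 0.788 in myoid and 0.886 in germ cells. *Ren1*, with 0.219 in members, had 6.88 in stromal cells, from 19 and 229 UMIs, and its UMIs in members lay in the few Leydig-marked cells.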

How the results depend on the processing

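No paired analysis was possible because each group has 1 library. The cause of a shift was not tested unless stated. Under 13 other settings and 1 more chosen after seeing the data (cells high in Leydig or blood genes left out), the shares moved most with the limits on cells. A mitochondrial limit of 5% gave non-cycling shares of the gate of 42.3% in control and 38.4% in *Brca1* vKO cells, and of all retained cells 14.5% and 15.8%. A cycling sum of 0 gave 24.6% and 21.7%, and 11.3% and 11.2%, and applying the rule after thinning to 5000 UMIs gave 46.2% in the *Brca1* vKO gate. Genes past the fold numbered 45 higher and 29 lower with a pseudocount of 1 CPM, 2 and 2 with 50 CPM, and 21 higher with a cycling sum of 0. The *Brca1* ratio was 0.933 with the rule after thinning and 0.931 with thinned cells, and between 1.11 and 1.34 elsewhere. Of 343 list genes, 8 were past the fold, 5 without doublets, 3 without cells high in Leydig or blood genes, 13 and 2 with pseudocounts of 1 and 50 CPM, and 5 with a minimum of 1000 UMIs. *Ren1* turned to 0.70 with a Sertoli sum of at least 20 per 10000. Of 344 list medians recomputed, 293 moved by less than 0.1 and 51 by more. The Sertoli marker median stayed between -0.04 and 0.05, and *Rbfox1*, *Stard9*, *Hbb-bs* and *Hba-a1* stayed past the fold in all 14. No replicate could be left out, since each genotype has 1 library, which limits every comparison.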

Other observations

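Of the 22 genes past the fold, 5 lay on chromosome 2 between 118 and 123 Mb of GRCm38, a window chosen after their positions were seen, which held 71 compared genes. They were *Gchfr* (119167773 to 119172390), *Ehd4* (120089175 to 120154606), *Stard9* (120629121 to 120731895), *Frmd5* (121545529 to 121807087) and *AA467197* (122636986 to 122641191). The first 4 were higher and the last lower in *Brca1* vKO members, and chromosome 2 held 986 compared genes in all. Over all 12256 genes compared, 0.106% were past the fold upward and 0.0734% downward. Whether the genes group by position was not tested.

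*Kdr*, known as an endothelial receptor, was at 17.3 CPM (406 UMIs) in control and 7.87 CPM (285 UMIs) in *Brca1* vKO members, and at 17.4 and 8.99 CPM in cycling cells of the gate. *Cdh5* and *Pecam1*, which define endothelial cells, stood at 1.57 and 1.85 CPM and at 3.36 and 3.20 CPM in the members. *Hist1h2bc*, a histone gene, had a variance over mean of 4.60 and 5.07 among members and was seen in 15.7% and 14.8% of them at 5000 UMIs, and in 7.59% and 10.2% of stromal cells.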
